A study of Drosophila melanogaster with 4 samples.

Results

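The replication-dependent histone genes of Drosophila melanogaster encode the proteins that package DNA as it is copied. They comprise the linker histone H1 and the core histones H2A, H2B, H3 and H4. The genes examined here were those whose symbols begin with His1, His2A, His2B, His3 or His4 followed by a colon. The annotation holds 111 such genes among the 14001 genes matched. There are 23 copies of His1, 20 of His2A, 23 of His2B, 23 of His3 and 22 of His4. Reads were summed over all copies of a class, because single copies could not be told apart by these reads, as the values per copy below show.

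In animals, messenger RNAs of this kind normally end in a conserved stem-loop in place of a poly(A) tail. The stem-loop binding protein Slbp and the U7 ribonucleoprotein direct the cut that forms this end. The genes are transcribed in a nuclear compartment, the histone locus body, mainly while DNA is replicated. The early fly embryo divides its nuclei rapidly on stores laid down by the mother, histone mRNA and protein among them, before its own genome becomes active.

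Whole embryos of strain w118 were sampled at 4–5 h and at 0–1 h after egg laying, with 2 replicates at each stage. The 0–1 h embryos come from before and the 4–5 h embryos from after activation of the zygotic genome, which is the comparison the design states. At both stages, embryos were stripped of the chorion in bleach and homogenised, and RNA came from the cleared lysate. Native RNA was read on a Nanopore device from total RNA, without selection of poly(A) RNA. The standard adapter of this type of kit joins to poly(A) ends. Tails were not measured here, so the values describe histone RNA that entered the libraries, and the share of all histone RNA that did so was not tested. The labels do not say whether replicates came from separate collections, so the spread behind each p-value is that of these libraries and could be technical.

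The libraries held 883138 and 429534 reads at 4–5 h, against 573843 and 557424 reads at 0–1 h. Markers of stage followed the labels. The maternal markers bcd, osk, gnu and exu summed to 36 and 20 reads at 4–5 h, against 1748 and 1671 at 0–1 h. The zygotic markers Kr, en, tin, SoxN and mira summed to 378 and 183 reads at 4–5 h, against 7 and 12 at 0–1 h. Of 7 markers of follicle cells and fat body, 5 were at 0 in every library. The list summed to 1 and 2 reads at 4–5 h, against 0 and 0 at 0–1 h. The share of reads on ribosomal RNA genes and pseudogenes was 5.33% and 3.21% at 4–5 h, against 2.20% and 0.736% at 0–1 h. The mean length of the assigned transcripts was 1266 and 1338 nt at 4–5 h, against 1798 and 1665 nt at 0–1 h. The part of these library differences in the histone values was not tested.

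All 111 copies lie in 1 cluster on chromosome 2L, from 21416953 to 21541681 in build BDGP6.54, a span of 124729 nt. Each copy is annotated as a protein-coding gene with 1 exon. The cluster holds 19 complete runs of the 5 classes in the order His1, His2B, His2A, His4 and His3, and 3 runs without His2A. Within a class, starts of neighbouring copies lie a median of 5045 nt apart. His1, His2A and His3 lie on the plus strand, and His2B and His4 on the minus strand. His2B and His2A therefore point away from each other, with a median of 128 nt between them, and so do His4 and His3, with 183 nt. The 3′ ends of His1 and His2B face each other across a median of 136 nt, and those of His2A and His4 across 365 nt. The median annotated transcript is 1023 nt for His1, 493 nt for His2A, 595 nt for His2B, 529 nt for His3 and 413 nt for His4. The annotated 3′ UTRs are short, with medians of 93 nt for His1, 66 nt for His2A, 177 nt for His2B, 61 nt for His3 and 45 nt for His4.

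The histone transcripts were a small share of each library. All classes together held 3179 and 1399 reads at 4–5 h, against 3815 and 3930 reads at 0–1 h. These are 0.360% and 0.326% of the 4–5 h libraries, against 0.665% and 0.705% of the 0–1 h libraries. The replicates of a stage lay close together and the stages did not overlap on this scale. On CPM, reads scaled to library size, adjusted by TMM, a method that centres the bulk of genes between libraries, the total was 5224 ± 711 at 4–5 h, against 4602 ± 345 at 0–1 h (SD, n = 2 each). The log2 change was 0.18 (SE 0.19), which was not called by edgeR's quasi-likelihood test with Benjamini-Hochberg adjustment (adjusted p = 0.411). The total thus gave no call with TMM, while with library size alone as the scale it was lower at 4–5 h, by a log2 change of -0.996 (adjusted p = 1.0e-07). In whole embryos, a change in the number of nuclei or cells that hold a gene's RNA and a change in its amount in each cannot be told apart.

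The direction of a change can depend on the scale. TMM factors were 0.634 and 0.698 at 4–5 h, against 1.54 and 1.47 at 0–1 h. The median log2 change of all genes tested was -0.11 with TMM and -1.29 with library size alone. On the deposited TPM it was -1.79, on the scale of log2(TPM + 1). TPM divides by an effective length equal to the length minus 250 nt in 99.0% of entries, which leaves 163 nt for a typical His4 transcript and 773 nt for His1. A length fixed for a transcript bears on levels between classes and cancels in the change between stages. From library size to log2(TPM + 1), the log2 change moved from -1.001 to -1.76 for His1 and from 0.70 to -0.07 for His4. The step was thus similar for the longest and the shortest class. Because direction can depend on the scale, it is given first with TMM, then under the other scales, and then relative to the median of all genes. A change from TMM to library size shifts the log2 change of every gene by nearly the same amount. Values relative to the median are therefore nearly equal on these 2 scales by construction, and their likeness is not separate support.

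The make-up of the histone reads differed between the stages. Among the histone reads, His2A had the largest share at 0–1 h and His4 at 4–5 h, while the His1 share stayed between 18.1% and 19.4%. His2A took 15.0% and 14.4% of the histone reads at 4–5 h, against 60.3% and 59.1% at 0–1 h. His4 took 44.8% and 42.5% at 4–5 h, against 13.4% and 13.5% at 0–1 h. His2B took 16.6% and 19.2% at 4–5 h, against 6.66% and 7.38% at 0–1 h. His3 was the smallest class in every library, with 5.41% and 4.50% at 4–5 h, against 1.05% and 0.993% at 0–1 h. His1 took 18.1% and 19.4% at 4–5 h, against 18.6% and 19.0% at 0–1 h. For His2A, His2B, His3 and His4 the exact binomial 95% intervals of the 4–5 h and 0–1 h libraries did not overlap. For His1 they overlapped in every library, from 16.8% to 21.5% over both 4–5 h libraries and from 17.4% to 20.2% over both 0–1 h libraries. These intervals cover counting error only. Shares within the histone reads do not depend on how libraries are scaled, but a share can move because another class moved.

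**Figure D1:**
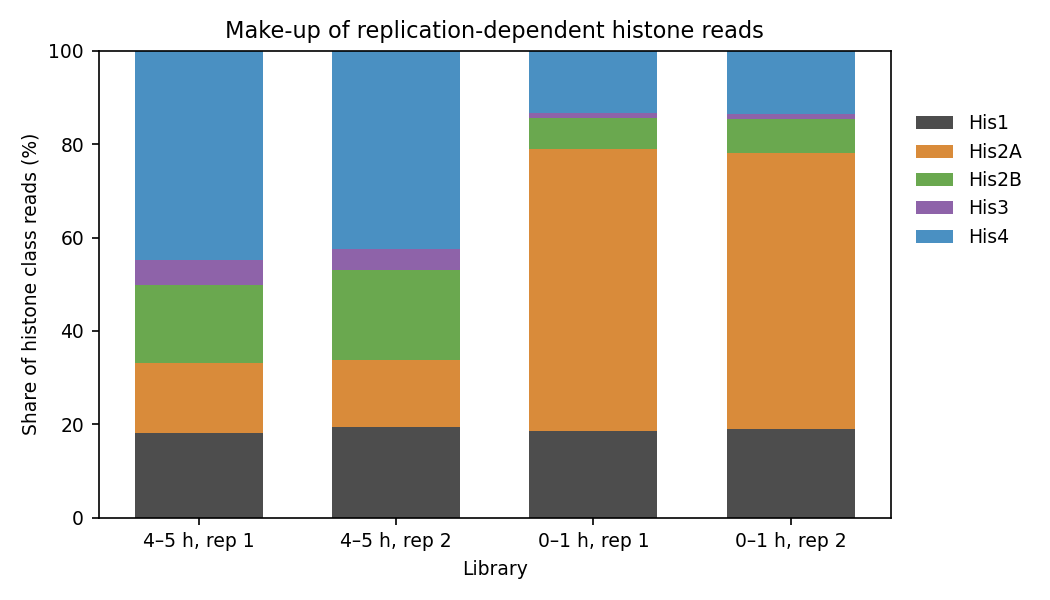
Stacked bars give the share of replication-dependent histone reads (%, vertical axis) taken by each class in each of the 4 libraries (horizontal axis), with no error bars. The His2A segment is 15.0% and 14.4% in the 4–5 h libraries, against 60.3% and 59.1% in the 0–1 h libraries, and the His1 segment stays between 18.1% and 19.4%.

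The order of the classes depends on whether reads are divided by transcript length. A native RNA read stands for a single molecule, so read numbers count molecules read, and division by length lowers the longer His1 transcripts relative to the rest. By reads the order at 0–1 h was His2A, His1, His4, His2B and His3 in both replicates. By reads at 4–5 h it was His4, His1, His2B, His2A and His3 in both, though His1 and His2B lay close, at 271 and 269 reads in the second library. In RPKM, reads per kb of transcript scaled to library size, the order at 0–1 h was His2A, His4, His1, His2B and His3 in both replicates. In RPKM at 4–5 h His4 stood first and His3 last in both replicates, with His1 next to last, while His2A and His2B changed places. His4 at 4–5 h, His2A at 0–1 h and His3 at both stages had the same place on both scales. His4 stood at 3904 and 3354 RPKM at 4–5 h, against 2158 and 2311 at 0–1 h. His2A stood at 1135 and 983 RPKM at 4–5 h, against 8416 and 8759 at 0–1 h. The neighbours His2A and His2B in RPKM at 4–5 h did not differ beyond their spread, since His2B stood at 1007 and 1053 RPKM there. At 0–1 h His2B stood at 744 and 874 on the same scale, well below His2A. His1 stood at 639 and 617 RPKM at 4–5 h, against 1210 and 1307 at 0–1 h. His3 stood at 368 and 277 at 4–5 h, against 132 and 132 at 0–1 h.

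H2A and H2B proteins form a dimer, as do H3 and H4, and their genes lie in divergent pairs. The paired messages were nonetheless read in clearly unequal numbers for His4 and His3 at both stages and for His2A and His2B at 0–1 h. The ratio of His2A to His2B per kb was 1.13 and 0.934 at 4–5 h, against 11.3 and 10.02 at 0–1 h. In reads it was 0.901 and 0.747 at 4–5 h, against 9.05 and 8.02 at 0–1 h. On both scales the messages of this dimer were nearer parity at 4–5 h. The ratio of His4 to His3 per kb was 10.6 and 12.1 at 4–5 h, against 16.4 and 17.5 at 0–1 h. In reads it was 8.28 and 9.44 at 4–5 h, against 12.8 and 13.6 at 0–1 h, so His4 exceeded His3 in every library.

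His2A, the class that encodes a core histone of the outer dimers of the nucleosome, fell. It had 477 and 201 reads at 4–5 h, against 2299 and 2324 at 0–1 h. With TMM this was 769 ± 128 CPM at 4–5 h, against 2746 ± 169 at 0–1 h (SD, n = 2 each), which is 3.56-fold lower. The log2 change was -1.83 (SE 0.21, edgeR adjusted p = 2.1e-09). Of all 6012 genes and classes tested, 59.9% were called, 28.4% higher and 31.5% lower at 4–5 h, so a call by itself is common in this comparison. The direction held under every scale, with log2 changes of -3.01 with library size alone and -3.79 on log2(TPM + 1). Relative to the median of all genes, His2A was lower by 1.73 with TMM, by 1.72 with library size and by 1.99 on TPM in log2 units.

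His4, which encodes the partner of H3 at the centre of the nucleosome, rose with TMM. It had 1424 and 595 reads at 4–5 h, against 511 and 532 at 0–1 h, and the 4–5 h libraries differ in depth. After scaling it had 2287 ± 394 CPM at 4–5 h, against 620 ± 51.0 at 0–1 h (SD, n = 2 each), which is 3.69-fold higher. The log2 change was 1.88 (SE 0.21, edgeR adjusted p = 1.3e-09). It was 0.70 with library size alone (adjusted p = 3.5e-04) and -0.07 on log2(TPM + 1) (limma adjusted p = 0.823), so the sign turned on the TPM scale. Relative to the median of all genes the change was 1.99 with TMM, 1.99 with library size and 1.73 on TPM.

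His3, the class with the fewest reads, showed the largest change of the 5 classes with TMM. It had 172 and 63 reads at 4–5 h, against 40 and 39 at 0–1 h. Scaled values were 261 ± 68.8 CPM at 4–5 h, against 46.9 ± 1.69 at 0–1 h (SD, n = 2 each), which is 5.65-fold higher. The log2 change was 2.50 (SE 0.26, edgeR adjusted p = 3.8e-10). It was 1.31 with library size alone (adjusted p = 6.4e-05) and 0.51 on log2(TPM + 1) (limma adjusted p = 0.132), where it was not called. Relative to the median of all genes the change was 2.60 with TMM, 2.60 with library size and 2.30 on TPM.

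His2B, which encodes the partner of H2A, rose with TMM. It had 529 and 269 reads at 4–5 h, against 254 and 290 at 0–1 h. Scaled values were 930 ± 32.0 CPM at 4–5 h, against 324 ± 47.7 at 0–1 h (SD, n = 2 each), which is 2.88-fold higher. The log2 change was 1.52 (SE 0.21, edgeR adjusted p = 8.4e-08). It was 0.35 with library size alone (adjusted p = 0.0872) and -0.41 on log2(TPM + 1) (limma adjusted p = 0.178), so the call was lost on both and the sign turned on TPM. Relative to the median of all genes the change was 1.63 with TMM, 1.64 with library size and 1.38 on TPM.

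His1, which encodes the linker histone that binds DNA between nucleosomes, was not called with TMM. It had 577 and 271 reads at 4–5 h, against 711 and 745 at 0–1 h. Scaled values were 977 ± 88.4 CPM at 4–5 h, against 865 ± 75.2 at 0–1 h (SD, n = 2 each). The log2 change was 0.18 (SE 0.20, edgeR adjusted p = 0.461). With library size alone it was -1.001 (adjusted p = 5.4e-06), and on log2(TPM + 1) it was -1.76 (limma adjusted p = 3.3e-04). Relative to the median of all genes the change was 0.28 with TMM, 0.29 with library size and 0.03 on TPM.

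**Figure D2:**
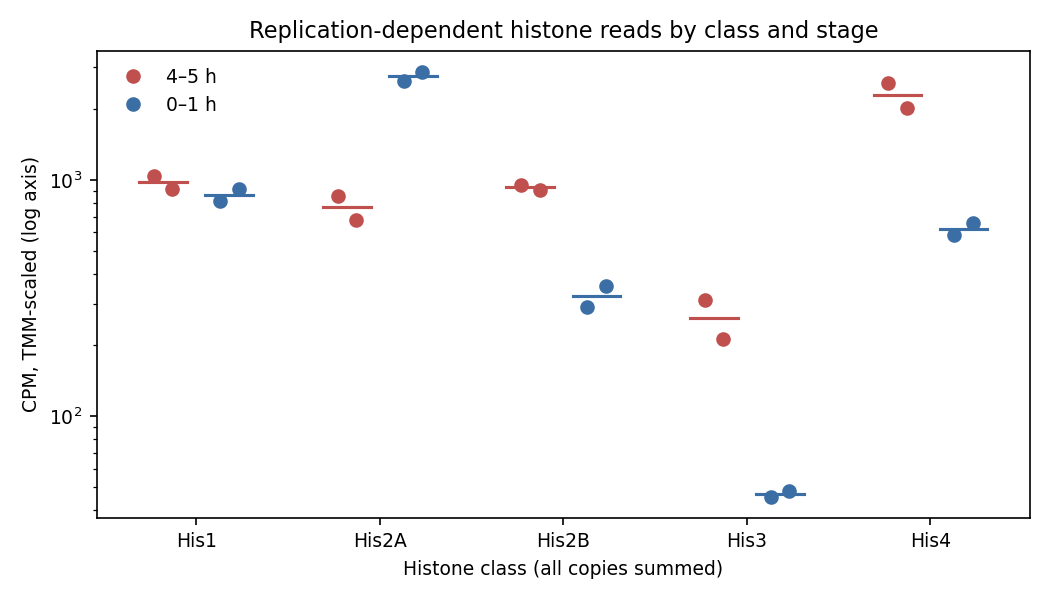
Points give TMM-scaled CPM (log axis) of each library for each class summed over its copies, and lines give the mean of 2 replicates, with 4–5 h left of 0–1 h in each class. His2A averages 769 at 4–5 h, against 2746 at 0–1 h, while His2B, His3 and His4 lie higher at 4–5 h and the His1 stages average 977 at 4–5 h, against 865 at 0–1 h.

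**Figure D3:**
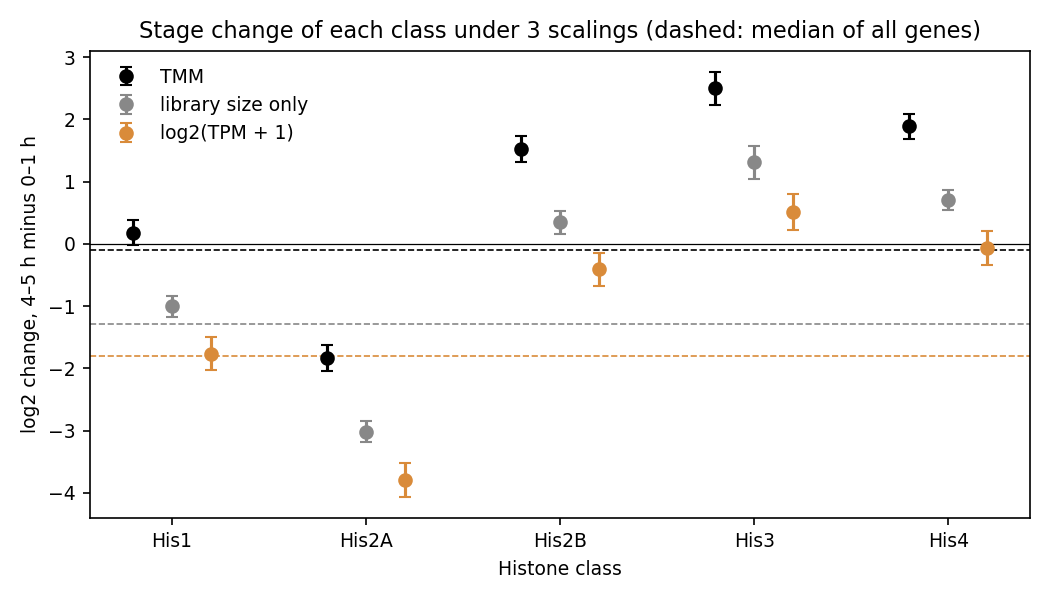
Points give the log2 change of each class, 4–5 h minus 0–1 h, with its standard error, under TMM, library size alone and log2(TPM + 1), and dashed lines give the median of all genes at -0.11, -1.29 and -1.79. The values move down together from scale to scale, while His2A stays below the dashed line of each scale and His2B, His3 and His4 stay above it.

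Whether the classes changed unequally was tested with edgeR's diffSpliceDGE, with the 5 classes entered as parts of a single gene beside all other genes and their transcripts. A shift common to all classes of a library cancels in this comparison. The joint test was chosen after the data were seen. It called the difference among classes (adjusted p = 0.00394), where it called 13.3% of the 824 genes tested. The most distant classes, His3 and His2A, differed in log2 change by 4.31. The call was lost when any 1 library was left out, with adjusted p from 0.127 to 0.321, although the difference stayed between 4.19 and 4.40. It was also lost without a filter on low counts (adjusted p = 0.0980) and with replicate number as a block (adjusted p = 0.404).

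Each class was set against the 5 together with the same test, and none was called, where 0.278% of all 1798 transcripts and classes were. The unadjusted p was under 0.05 for His2A and His3. Relative to all classes together, the log2 change was -2.02 for His2A (adjusted p = 0.288) and 2.29 for His3 (adjusted p = 0.0932). It was 1.70 for His4 (adjusted p = 0.432), 1.34 for His2B (adjusted p = 0.652) and -0.01 for His1 (adjusted p = 1.0).

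The classes were then compared in all 10 pairs with the gene-level test, a comparison chosen after the data were seen, in which 13.1% to 13.3% of the 824 genes were called. Adjusted values are over the genes tested. His3 exceeded His2A in log2 change by 4.31 (95% interval 3.03 to 5.59, adjusted p = 0.0230). His4 exceeded His2A by 3.72 (2.09 to 5.35, adjusted p = 0.0249), and His2B exceeded His2A by 3.36 (1.89 to 4.82, adjusted p = 0.0249). His3 also exceeded His1, by 2.30 (1.10 to 3.499, adjusted p = 0.0357). Each of these calls was lost when any 1 library was left out, when low counts were not filtered and with replicate number as a block.

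The other 6 pairs were not called in this fit, made beside all transcripts. The H3 and H4 messages, whose proteins pair, differed in log2 change by 0.59 (95% interval -0.55 to 1.74, His3 minus His4, adjusted p = 0.573). The interval was -1.07 to 1.79 around 0.36 for His4 minus His2B (adjusted p = 0.887). It was -0.28 to 2.19 around 0.95 for His3 minus His2B (adjusted p = 0.330). These intervals allow differences of more than 1 log2 unit, so equal change was not shown. His1 stood between the groups, 2.01 above His2A (adjusted p = 0.0987), 1.71 below His4 (adjusted p = 0.162) and 1.35 below His2B (adjusted p = 0.235). When the classes were fitted beside all genes in place of all transcripts, also chosen after the data were seen, the unadjusted p of 4 of these pairs was under 0.05. It was 7.0e-04 for His1 and His2A, 0.00180 for His4 and His1, 0.00226 for His2B and His1, and 0.0264 for His3 and His2B, whose interval became 0.19 to 1.76. It was 0.0922 for His3 and His4 and 0.190 for His4 and His2B.

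The split of reads over single copies shows why they were not analysed one by one. Of the 111 copies, 66 had reads in at least 1 library and 45 were at 0 in all of them. The authors' read numbers were estimated by Salmon, which divides reads that match several transcripts. His3 is the plainest case. Its reads were divided equally over all 23 copies, at 7.48 and 2.74 reads a copy at 4–5 h, against 1.74 and 1.70 at 0–1 h, so no copy was highest or lowest. Equal here means within 0.001 reads.

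His2A showed the opposite. Every read in every library was assigned to His2A:CG33808, at 21433862 to 21434337 on 2L, and the other 19 copies, such as His2A:CG31618, were at 0. That copy is annotated at 476 nt with a 5′ UTR of 35 nt, while the other 19 are annotated at 493 nt with a 5′ UTR of 52 nt. In His4, 9 copies shared the reads, with 158 and 66.1 reads each at 4–5 h, against 56.8 and 59.1 at 0–1 h, apart from His4:CG33903 with 66.5 in the second 4–5 h library. The other 13 His4 copies were at 0, among them His4:CG33907 and the 4 copies that have no annotated 3′ UTR.

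In His1 and His2B the assigned copy changed between libraries. His1:CG33816, at 21456113 to 21457135, took 64.1 and 0 reads at 4–5 h, against 710 and 549 at 0–1 h. His1:CG33852 took 0 and 270.0 reads at 4–5 h, against 0 and 195 at 0–1 h. In the first 4–5 h library 9 His1 copies had 64.1 reads each, and 13 copies, such as His1:CG33801, were at 0 in every library. His2B:CG33868, at 21537505 to 21538099, took 0 and 267 reads at 4–5 h, against 0 and 12.6 at 0–1 h. His2B:CG33882, the His2B copy with the fewest reads, took 0 and 0 at 4–5 h, against 11.5 and 12.6 at 0–1 h. Replicates thus differed in the copy named while the class sums were close relative to library size.

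Taken as separate genes, the copies could give the opposite of their class. All 23 His2B copies were then tested and 16 were called lower by edgeR at 4–5 h, with none higher. Of all 6042 genes in that fit, 60.1% were called, 1730 higher and 1903 lower. Among the His2B copies, 15 hold identical reads in every library, so their tests repeat a single result. The class sum of His2B rose with TMM. The log2 changes of single His2B copies ranged from -6.25 to 5.74. In His4, 9 of 9 tested copies were called higher, at 1.90 to 1.91. These copies hold nearly the same reads in each library, so the 9 calls repeat a single result. Their closeness to the class was fixed by that equal split. In His2A the only copy tested was called lower, at -1.82. For His1, 2 copies were tested and neither was called, at -3.45 and 1.86. No His3 copy passed the filter on low counts, although their sum was called.

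**Figure D4:**
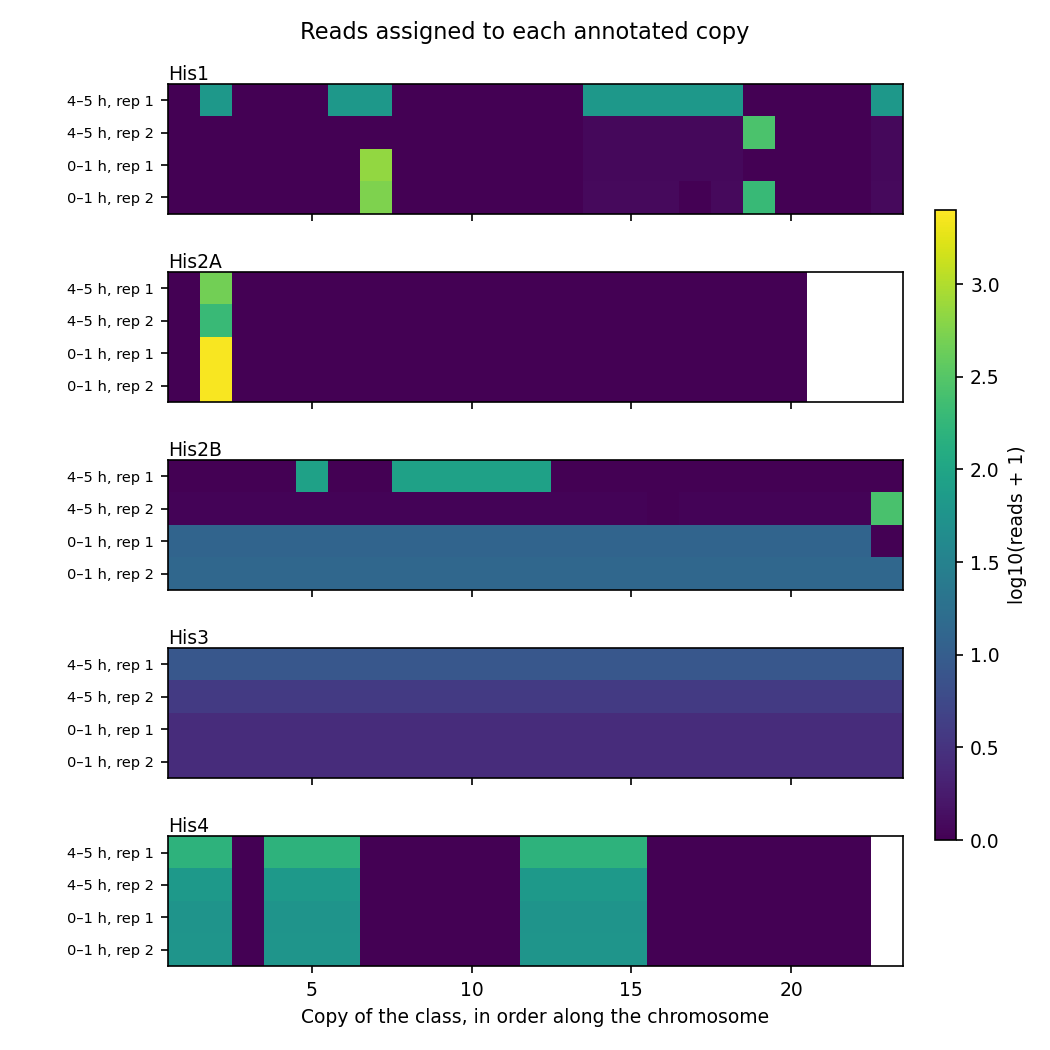
Each panel is a class, with its copies in order along chromosome 2L (horizontal axis), the 4 libraries as rows and colour giving log10(reads + 1). His2A shows 1 filled column of 20, His3 has equal values over its 23 copies within a library, and the filled columns of His1 and His2B shift between libraries.

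Several classes have relatives outside the cluster that are made independently of DNA replication. Their messages generally carry poly(A) tails, and they supply variant proteins or, in His4r, the same H4 protein. Of 6 such genes tested, 4 were called higher and 1 lower at 4–5 h with TMM, and the median log2 change was 2.04, against -0.11 over all genes. Over all genes tested, 28.4% were called higher and 31.5% lower with TMM. The split of the variants was 4 higher and 2 lower with library size alone, where 10.8% of all genes were higher and 63.4% lower. It was 2 higher and 2 lower on log2(TPM + 1), where 4.44% of all genes were higher and 78.8% lower. How alike the RNA sequences of these genes and the cluster are, and whether reads were exchanged, was not analysed here. Whether cluster and variant RNAs, which usually differ in their tails, entered the libraries equally well was not tested. Each share of a class beside its variants below is thus a share of RNA read, and not of RNA in the embryo.

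BigH1, the linker histone of the early embryo and germ line, fell. It had 9 and 5 reads at 4–5 h, against 217 and 221 at 0–1 h, a log2 change of -3.97 (SE 0.33, edgeR adjusted p = 1.6e-12), and it fell under each scale. His1 made up 98.8% and 98.5% of the level per kb of His1 and BigH1 together at 4–5 h, against 80.4% and 80.8% at 0–1 h. This shift arose with no call for His1 itself on the TMM scale.

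His2Av, which encodes the only H2A variant of the fly, had 2012 and 718 reads at 4–5 h, against 525 and 582 at 0–1 h. Its log2 change was 2.20 (SE 0.22, edgeR adjusted p = 1.1e-10), the opposite sign to that of His2A. It was 1.02 with library size alone and 0.18 on log2(TPM + 1). His2A made up 32.0% and 36.3% of the level per kb of both at 4–5 h, against 89.6% and 88.6% at 0–1 h. In reads, His2A had 477 and 201 at 4–5 h, below His2Av, against 2299 and 2324 at 0–1 h, above His2Av.

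His4r had 2099 and 759 reads at 4–5 h, against 415 and 428 at 0–1 h. It rose 6.34-fold with TMM, with a log2 change of 2.66 (SE 0.22, edgeR adjusted p = 1.6e-12), 1.48 with library size alone and 0.70 on log2(TPM + 1). The His4 cluster genes made up 48.3% and 51.6% of the level per kb of His4 and His4r together at 4–5 h, against 62.7% and 63.1% at 0–1 h. In reads, His4 had 1424 and 595 at 4–5 h, below His4r, against 511 and 532 at 0–1 h, above His4r.

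His3.3A and His3.3B encode the replacement histone H3.3. With TMM the log2 change was 2.69 (SE 0.22) for His3.3A and 1.89 (SE 0.21) for His3.3B, and both were called by edgeR. His3.3B was lower at 4–5 h on log2(TPM + 1), at -0.33, and His3.3A higher, at 0.73. His3 made up 13.6% and 10.8% of the level per kb of all 3 at 4–5 h, against 11.0% and 8.60% at 0–1 h. Both H3.3 genes together had 2731 and 1335 reads at 4–5 h, against 807 and 1005 at 0–1 h, so they outnumbered the His3 reads in every library. His3 had 172 and 63 reads at 4–5 h, against 40 and 39 at 0–1 h. The centromeric variant cid had 60 and 22 reads at 4–5 h, against 83 and 78 at 0–1 h, and was not called, at -0.02 with TMM (SE 0.28, edgeR adjusted p = 0.948).

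The factors that cut and bind histone mRNA were the next group. Of 13 genes listed, 12 were matched and 10 tested. With TMM 4 of the 10 were called higher and none lower, where 28.4% of all genes were higher and 31.5% lower. The median log2 change was 0.64, against -0.11 over all genes. With library size alone none was higher and 4 were lower, where 63.4% of all genes were lower. On log2(TPM + 1) none was higher and 9 were lower, where 78.8% of all genes were lower. Lower calls were thus common over the whole table on both of these scales. Relative to the median of all genes, the list's median was 0.74 with TMM and, nearly fixed by the common shift, 0.74 with library size. On TPM it was 0.56. Without the second 0–1 h library, 2 of the genes were called with TMM.

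Slbp, the stem-loop binding protein, had 228 and 151 reads at 4–5 h, against 248 and 202 at 0–1 h. With TMM it had 460 ± 69.9 CPM at 4–5 h, against 266 ± 24.2 at 0–1 h (SD, n = 2 each), a log2 change of 0.78 (SE 0.21, edgeR adjusted p = 0.00145). The sign turned with library size alone, at -0.40, and on log2(TPM + 1), at -1.15. Ars2, which links the cap-binding complex to RNA processing, had a log2 change of 1.70 with TMM (edgeR adjusted p = 2.7e-07), which turned to -0.22 on TPM. Cbp20, a cap-binding subunit, was at 1.17 (edgeR adjusted p = 9.0e-05) and Cpsf100, of the cleavage complex, at 0.94 (edgeR adjusted p = 0.0176) with TMM, and both turned negative with library size alone and on TPM.

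The U7-specific proteins were few in reads. Lsm10 had 32 and 8 reads at 4–5 h, against 41 and 44 at 0–1 h, and was not called, at -0.14 with TMM (edgeR adjusted p = 0.742). Lsm11 had 5 and 4 reads at 4–5 h, against 6 and 8 at 0–1 h, and FLASH had 6 and 7 reads at 4–5 h, against 8 and 1 at 0–1 h. Neither passed the filter on low counts.

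All 8 listed genes of the histone locus body and of histone gene transcription were tested, and with TMM 2 were called higher and 2 lower, near the 28.4% and 31.5% of all genes. Their median log2 change was -0.02, against -0.11 over all genes. The split was 1 higher and 5 lower with library size alone (10.8% and 63.4% of all genes), and 1 higher and 6 lower on log2(TPM + 1) (4.44% and 78.8% of all genes). The scaffold protein of the body, mxc, had 11 and 13 reads at 4–5 h, against 23 and 18 at 0–1 h, and was not called, at 0.25 with TMM (edgeR adjusted p = 0.645).

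Spt6, an elongation factor and histone chaperone, had 109 and 98 reads at 4–5 h, against 33 and 23 at 0–1 h. Its log2 change was 2.95 with TMM (SE 0.29, edgeR adjusted p = 1.4e-10), 1.78 with library size alone and 0.89 on log2(TPM + 1). The regulator abo, described in flies as a repressor of histone genes, had 4 and 2 reads at 4–5 h, against 41 and 47 at 0–1 h. Its log2 change was -2.86 with TMM (SE 0.51, edgeR adjusted p = 1.0e-05), and it was negative under each scale. Myb, a transcription factor of cycling cells, was at 1.32 with TMM (edgeR adjusted p = 2.8e-05), at 0.14 with library size alone and at -0.60 on TPM. CycE, whose kinase drives entry into S phase, was at -0.68 with TMM (edgeR adjusted p = 0.0120), and it was negative under each scale.

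Of 5 genes of poly(A) addition and binding, 4 were tested. With TMM 2 were called higher and 1 lower (28.4% and 31.5% of all genes), and the median log2 change was 0.51, against -0.11 over all genes. With library size alone none was higher and 2 were lower, where 63.4% of all genes were lower. On log2(TPM + 1) none was higher and 3 were lower, where 78.8% of all genes were lower. The cytoplasmic poly(A) polymerase wisp, which lengthens tails of maternal messages, had 24 and 8 reads at 4–5 h, against 254 and 180 at 0–1 h. Its log2 change was -2.79 with TMM (SE 0.29, edgeR adjusted p = 4.3e-10), and it was negative under each scale. Pabp2, the nuclear poly(A) binding protein, was at 1.29 (edgeR adjusted p = 1.2e-05), and pAbp, the cytoplasmic one, at 0.65 (edgeR adjusted p = 0.00662), both with TMM. On log2(TPM + 1) Pabp2 was at -0.63 and pAbp at -1.32. A further polymerase, Gld2, had 2 and 0 reads at 4–5 h, against 0 and 0 at 0–1 h.

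Histone chaperones carry histone proteins to chromatin. All 11 listed were tested, and with TMM 3 were called higher and 4 lower, near the 28.4% and 31.5% of all genes. The median log2 change was 0.08, against -0.11 over all genes. With library size alone none was higher and 9 were lower, and on log2(TPM + 1) all 11 were lower. Of all genes 63.4% and 78.8% were lower on these scales, so lower calls were common over the whole table as well. Nap1, which binds H2A and H2B, had 186 and 87 reads at 4–5 h, against 866 and 792 at 0–1 h. Its log2 change was -1.64 with TMM (SE 0.21, edgeR adjusted p = 2.7e-08), and it was negative under each scale. Nlp, a nucleoplasmin of the egg, had 969 and 509 reads at 4–5 h, against 711 and 663 at 0–1 h. It was at 1.09 with TMM (SE 0.20, edgeR adjusted p = 1.7e-05), but at -0.09 with library size alone and -0.86 on TPM.

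Subunits of CAF-1, which places H3 and H4 on new DNA, did not share a direction with TMM. Caf1-55, also part of other chromatin complexes, was at 1.24 (edgeR adjusted p = 5.4e-05), Caf1-105 at -1.76 (edgeR adjusted p = 1.7e-05) and Caf1-180 at -0.04 (edgeR adjusted p = 0.885). Caf1-55 was at 0.06 with library size alone and at -0.69 on TPM. Hira and yem, partners in placing H3.3, were at -1.80 (edgeR adjusted p = 6.1e-04) and -1.60 (edgeR adjusted p = 4.1e-04), and both were negative under each scale.

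**Figure D5:**
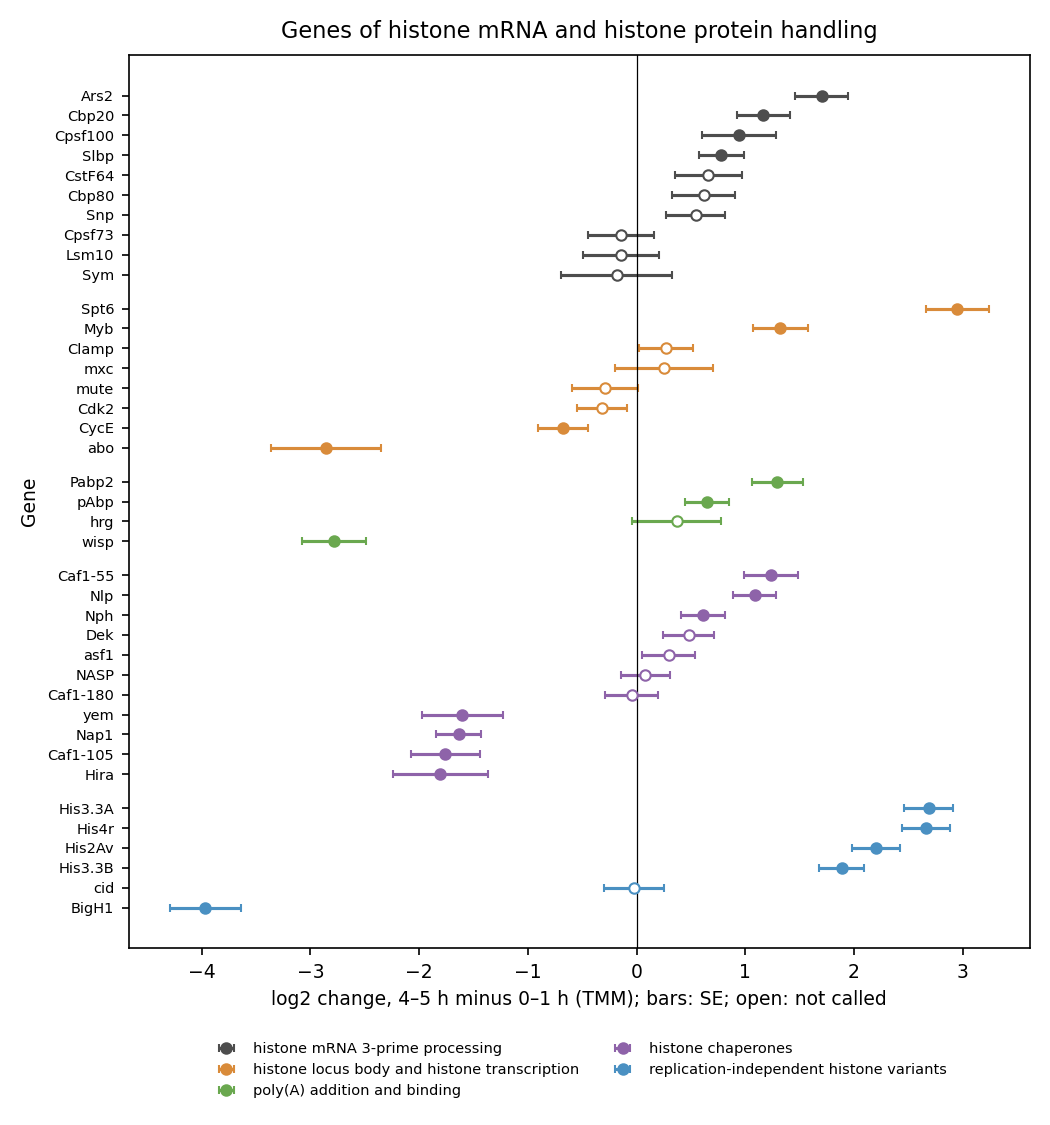
Points give the TMM log2 change, 4–5 h minus 0–1 h, with its standard error for each tested gene of the 5 lists (rows), and open points were not called. Spt6, His3.3A and His4r lie farthest to the right at 2.95, 2.69 and 2.66, and BigH1 and abo farthest to the left at -3.97 and -2.86.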

How the data were processed

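Each library was deposited as a table of transcripts. The authors' read numbers are expected counts estimated by Salmon, not normalised, and the deposited TPM values were made by the authors with an effective length. The submitters' processing notes name minimap2, Salmon and BDGP6. The sources used here give neither versions nor settings. Of 30652 transcripts, 30280 were matched by identifier to Ensembl release 115 of BDGP6.54, a later annotation than the authors may have used. The other 372 were kept as rows of their own and could enter the tests. Lengths agreed for 99.4% of those matched.

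Read numbers were summed per gene and per histone class, then rounded to whole numbers. Classes entered the table in place of their copies. The main test was edgeR 4.0.16 (glmQLFit and glmQLFTest, TMM, filterByExpr with a minimum count of 10) in R 4.3.3, with Benjamini-Hochberg adjustment over 6012 rows and a threshold of 0.05. Replicates correlated at r = 0.936 at 4–5 h and 0.956 at 0–1 h on log2 CPM across genes. The total of all classes was tested in a separate table. Unequal change was tested with diffSpliceDGE. Alternatives used DESeq2 1.42.0, other scalings and filters, and limma 3.58.1 on log2(TPM + 1) and log2(TPM + 0.1). Exact intervals are Clopper-Pearson at 95% and, like the floor of 3 reads (3.40 and 6.98 CPM at 4–5 h, against 5.23 and 5.38 at 0–1 h), cover counting error only. The test scripts were tested on simulated data.

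The members, gene lists and tests were chosen with earlier results of these data known. Genes named are the classes, the copies of each class with most and fewest reads, up to 6 called genes per list by smallest p, every histone variant, and Slbp, mxc, Lsm10 and Lsm11. FLASH, Gld2, Caf1-180 and the copy His1:CG33852 were added after their values were seen. The 3′ processing list also held snRNA:U7, which was not matched.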

Additional observations from a re-analysis of the deposited data

How the results depend on the processing

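Histone class changes were recomputed under 13 other settings each. The direction and call of all 5 classes and of their total stayed as with TMM under RLE factors, DESeq2, both other filters, thinning to the smallest library, the replicate block and each left-out library, with 2 kinds of exception, library size alone and TPM. With library size alone the log2 change was -1.001 for His1, 0.35 for His2B and -0.996 for the total. On log2(TPM + 1) it was -1.76 for His1, -0.41 for His2B, 0.51 for His3, -0.0686 for His4 and -1.65 for the total, and on log2(TPM + 0.1) it was -1.77, -0.41, 0.51, -0.0686 and -1.65 for the same classes and total. The median of all genes moved with these scales, and other causes were not tested.

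Set against the 5 classes together, His1 was at -0.0510 to 0.0430 over the left-out libraries, with 0.0430 without the first 4–5 h library and 0.0044 without the second 0–1 h library. His2A was at -2.05 to -1.99, His2B at 1.24 to 1.45, His3 at 2.14 to 2.40 and His4 at 1.66 to 1.73. Against single classes, His1 was at 2.01 to His2A and -2.30 to His3. His2A was at -3.36 to His2B, -4.31 to His3 and -3.72 to His4, with the signs turned in the other direction (3.36, 4.31 and 3.72). His2B was at -0.95 to His3 and -0.36 to His4, His3 at 2.30 to His1, and His4 at -0.59 to His3.

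The largest difference among classes was 4.31 without a filter, 4.29 with the replicate block and 4.19 to 4.40 over the left-out libraries, none of them called, and the cause was not tested. With the classes fitted beside all genes in place of all transcripts, it was 4.33 (unadjusted p = 1.0e-07), and 4.19 to 4.40 over the left-out libraries. That version, the joint test, the pairs and the counts over all genes were chosen after seeing the data.

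Called genes of the 3′ processing list numbered 2 to 5 over the left-out libraries, 9 on log2(TPM + 1) and 8 on log2(TPM + 0.1). On log2(TPM + 1) they numbered 7 for the locus body list and 11 for the chaperones, and on log2(TPM + 0.1) 2 for the variants. Same-numbered replicates of the stages share only a number, and their deviations from the stage means correlated at -0.21, so no pairing was used. Over all genes, 3601 were called, 3256 with the replicate block and 3780 with a crossed block. Grouping copies by identical sequence was not run, and copies were grouped by identical reads. The limit of depth is clearest for His3, with 39 to 172 reads.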
